A study of Mus musculus with 18 samples.

Results

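The contacts anchored at Hoxd1, the gene at the 3′ end of the mouse HoxD cluster, were followed in 18 5C libraries. The anchor was made of the 2 EcoRI fragments that cover Hoxd1 on chromosome 2 (mm9), and its members were all forward–reverse fragment pairs with an end on either fragment and at least 10 kb between midpoints. There were 127 such pairs of 4251 in the ESC design (133 fragments) and 198 of 10068 in the limb design (203 fragments). The fragments were chosen by position, and which pairs are forward–reverse was read from which pairs of fragments held any contact in the matrices.

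Chromosome conformation capture carbon copy (5C) fixes chromatin with formaldehyde, cuts it with EcoRI, ligates the cut ends and counts each junction with one forward and one reverse primer. Of the 14 ESC libraries, 2 came from undifferentiated OS25 cells, 2 from OS25 cells differentiated for 3 days with retinoic acid present for 2 days (D3 cells) and 2 from wild-type WTF18 cells. A further 2 came from cells without Eed (Eed-/-) and 3 from cells without Ring1B (Ring1B-/-). The last 3 came from Ring1B-/- cells with Ring1B put back, as the wild-type protein in 2 libraries and as the I53A mutant in 1. The limb libraries came from 2 immortalised mesenchymal cell lines made from anterior (A2, 2 libraries) and posterior (P2, 2) E10.5 distal forelimb buds, so that each axis position is represented by 1 line. WTF18, Ring1B-/- and Eed-/- ESCs had been grown on embryonic feeder fibroblasts, which were removed by reattachment before fixation. For the culture of OS25 cells the study cites an earlier protocol and does not itself state feeders. The clone behind each Eed-/- library is not known here. The study cites different sources for its Eed-/- and Ring1B-/- lines and does not name WTF18 as the parent of the Eed-/- cells. In contrasts with Eed-/- cells, genotype and cell line therefore cannot be told apart. The study calls its repeat data sets biological replicates, and p-values measure the spread between these libraries.

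Hoxd1 is an early and anterior Hox gene, and it faces a gene desert that holds Mtx2, a mitochondrial outer membrane gene, and regulatory sequence active in early limb and trunk. The other end of the cluster carries Hoxd13 and Evx2, and beyond them lie Lnp and the global control region (GCR), an enhancer region of digit expression. In ESCs the cluster is silent and covered by Polycomb: PRC2, which needs Eed, methylates histone H3 at lysine 27, and PRC1, which holds Ring1B, binds the same chromatin and ubiquitinates histone H2A. The I53A mutant of Ring1B lacks the ubiquitination activity.

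The anchor fragments adjoined each other. The first, mHoxD_93 (chr2:74591760-74598978, 7219 bp), carries the gene Gm14426 and part of 6720416L17Rik, a transcript antisense to the cluster. The second, mHoxD_94 (chr2:74598979-74604594, 5616 bp), carries the whole of Hoxd1 (74601037 to 74603200, plus strand) and the start of 6720416L17Rik. Both cut ends of each are shown 5′ to 3′ on the plus strand (mm9) with the EcoRI site in capitals, because a contact is counted at a junction of such ends. Each fragment carries 1 primer, and which of its ends was read was not settled here.
mHoxD_93 left end, chr2:74591757-74591792: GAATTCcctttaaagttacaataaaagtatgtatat
mHoxD_93 right end, chr2:74598946-74598981: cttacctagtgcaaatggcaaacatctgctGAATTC
mHoxD_94 left end, chr2:74598976-74599011: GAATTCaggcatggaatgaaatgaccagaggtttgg
mHoxD_94 right end, chr2:74604562-74604597: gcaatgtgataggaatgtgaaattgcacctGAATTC
Both fragments begin and end at an EcoRI site and hold 0 sites inside.

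The anchor fragments differed in base composition. The fragment with Hoxd1 held 190 CpG dinucleotides, or 33.8 per kb, the 8th highest density of the 133 ESC fragments, against a median of 9.33 per kb. Its neighbour mHoxD_93 held 53, or 7.34 per kb. The fragments belong to opposite primer sets, so each was read against different partners and their levels cannot be compared partner by partner.

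The ends of 3 partners are shown because they held the highest mean frequencies with Hoxd1 in undifferentiated OS25 cells.
mHoxD_110 left end, chr2:74637464-74637499: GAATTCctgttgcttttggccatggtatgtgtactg
mHoxD_110 right end, chr2:74640601-74640636: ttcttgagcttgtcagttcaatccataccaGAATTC
mHoxD_75 left end, chr2:74516249-74516284: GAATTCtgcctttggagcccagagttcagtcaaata
mHoxD_75 right end, chr2:74524285-74524320: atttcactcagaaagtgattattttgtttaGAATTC
mHoxD_70 left end, chr2:74505527-74505562: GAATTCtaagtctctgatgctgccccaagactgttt
mHoxD_70 right end, chr2:74511656-74511691: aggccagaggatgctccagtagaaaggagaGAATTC
mHoxD_75 (chr2:74516252-74524317) carries Hoxd11 and mHoxD_70 (chr2:74505530-74511688) carries Hoxd13, and at 41.4 and 36.9 CpGs per kb both were among the 7 densest fragments. mHoxD_110 (chr2:74637467-74640633) lies between Hoxd1 and Mtx2, overlaps no annotated gene and held 5.05 CpGs per kb.

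Total reads ran from 216419 to 2096681 per library, and the Hoxd1 pairs took 2.51% to 5.76% of the signal at 10 kb or more in ESCs and 2.86% to 3.08% in limb cells. Between 7244 and 45034 reads per library fell on Hoxd1 pairs. Of the 127 ESC pairs, 15 to 64 were at 0 in a library, and of the 198 limb pairs 2 to 29 were. The Eed-/- libraries had the most such pairs (60 and 64), and replicate 2 of them had the lowest Hoxd1 share. A count of 3 reads corresponds to 0.00143 to 0.0139 reads per 1000, which covers counting error only. All frequencies below are reads per 1000 total reads of the run, averaged over the fragment pairs of a partner window with zeros included.

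In undifferentiated ESCs, the mean frequency of Hoxd1 was higher with the rest of its cluster as a whole than with either flank as a whole. By single window, the interval between Hoxd1 and Mtx2 stood highest in OS25 replicate 1 (0.832). With the window from Hoxd13 to Hoxd8 (11 pairs), the frequency of Hoxd1 was 0.674 and 0.885 in OS25 cells and 0.738 and 0.720 in wild-type cells. With Hoxd4 and Hoxd3 (8 pairs), the neighbours on the 5′ side, it was 0.444 and 0.670 in OS25 cells and 0.629 and 0.639 in wild-type cells. With Evx2 (2 pairs) it was 0.512 and 0.650 in OS25 cells and 0.376 and 0.339 in wild-type cells. The distal Hoxd13 to Hoxd8 window was above the adjacent Hoxd4 and Hoxd3 window in all 4 libraries, although it lies farther from Hoxd1. Read by anchor fragment, this order held only for mHoxD_94. From mHoxD_93, the distal window was below the adjacent one in all 4 libraries. Its values were 0.152 and 0.294 against 0.373 and 0.689 in OS25 cells and 0.221 and 0.420 against 0.547 and 0.547 in wild-type cells.

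Toward Mtx2 the frequencies were lower in most windows and libraries. Between Hoxd1 and Mtx2 (11 pairs) they were 0.832 and 0.258 in OS25 cells and 0.553 and 0.334 in wild-type cells, so replicates of a line differed widely. A single pair, mHoxD_93 with mHoxD_110, made up much of this window, and the other 10 pairs averaged 0.290 and 0.158 in OS25 cells and 0.296 and 0.232 in wild-type cells. With Mtx2 (13 pairs) they were 0.245 and 0.165 in OS25 cells and 0.201 and 0.072 in wild-type cells. The 2 parts of the gene desert beyond gave 0.094 to 0.218 in these 4 libraries and overlapped with Mtx2.

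On the 5′ side, frequencies fell to the lowest level just beyond Evx2. The Prox enhancer window, Lnp and GCR lay between 0.031 and 0.086 in the 4 libraries and their ranges overlapped. Over all 14 ESC libraries, their medians were 0.0656 at Prox, 0.0559 at Lnp and 0.0472 at GCR. The medians were 0.198 at Mtx2, 0.172 in the nearer desert and 0.157 in the farther desert. This order did not hold in every library. In wild-type replicate 2, Mtx2 (0.0717) lay below Prox (0.0750) and Lnp (0.0724). In Eed-/- replicate 2, the nearer desert (0.0575) lay below Prox (0.108) and GCR (0.0647). The within-library log2 ratio of the 5′ to the 3′ flank, taken at matched distances, was below 0 in 13 of 14 libraries, with the exception of Eed-/- replicate 2 (0.13).

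**Figure D1:**
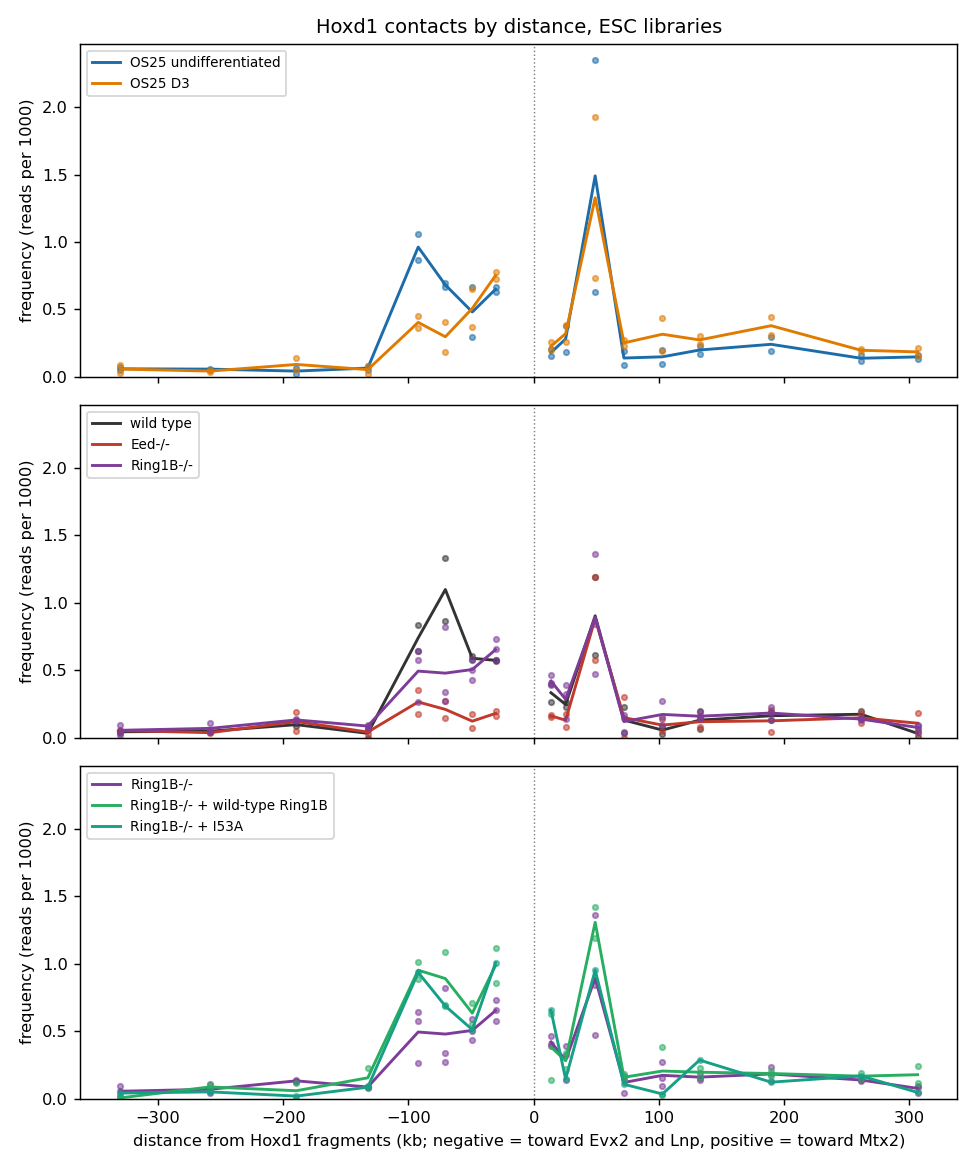
Frequency of Hoxd1 contacts (reads per 1000) against signed distance from the anchor in kb for the ESC libraries. Points are libraries, lines join group means of each distance class, and the highest point on the 3′ side is the distance class that holds the pair of mHoxD_93 and mHoxD_110.

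Set against pairs of the same library and like distance without Hoxd1, the cluster contacts of Hoxd1 stood above the mean of their distance. The ratio of observed to expected frequency with Hoxd13 to Hoxd8 had a median of 3.53 over 14 ESC libraries and was above 1 in all 14 (1.44 to 4.83). With Evx2 it had a median of 3.53 and was above 1 in 10 of 14. With Hoxd4 and Hoxd3 the median was 1.99, with 13 of 14 above 1. On the 3′ side the medians were 1.21 between Hoxd1 and Mtx2, 1.59 at Mtx2, 1.55 and 1.21 in the desert. On the 5′ side they were 0.650 at Prox, 0.466 at Lnp and 0.399 at GCR, with Lnp and GCR below 1 in every library. These ratios are a description, since the libraries share primers.

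D3 cells had lower readings of Hoxd1 with the far end of its cluster, in differences that missed the adjusted threshold. Contacts of Hoxd1 with Evx2 were 0.512 and 0.650 in undifferentiated OS25 cells and 0.070 and 0.085 in D3 cells. Those with Hoxd13 to Hoxd8 were 0.674 and 0.885 before and 0.355 and 0.436 after. Those with Hoxd4 and Hoxd3 were 0.444 and 0.670 before and 0.596 and 0.775 after. The groups did not overlap at Evx2 or at Hoxd13 to Hoxd8, and they overlapped at Hoxd4 and Hoxd3. Within a library, the Evx2 frequency was 1.15 and 0.970 times that of Hoxd4 and Hoxd3 in undifferentiated cells and 0.117 and 0.110 times in D3 cells.

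By limma with Benjamini-Hochberg adjustment over all window pairs, the difference at Evx2 was −2.62 ± 0.64 on the log2 scale (SE, n = 2 and 2, adjusted p = 0.0670), a 6.13-fold lower frequency, and at Hoxd13 to Hoxd8 −0.94 ± 0.33 (adjusted p = 0.182). Of 10 Hoxd1 windows 0 passed, beside 0% of the 64 window pairs tested, and 2 of the 10 had an unadjusted p under 0.05. The Evx2 difference passed in limma under 5 of 9 other settings (adjusted p from 1.83e-05 to 0.245). It rests on mHoxD_93 with mHoxD_67 (chr2:74483052-74498311), which was at 1.02 and 1.06 before and 0.140 and 0.171 after, while the other pair of the window held reads in 1 of these 4 libraries (0.240).

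Toward Mtx2, D3 cells read higher in the means at Mtx2 and in both parts of the desert, without passing. Between Hoxd1 and Mtx2 the D3 mean was slightly lower (0.529 against 0.545). Its libraries were at 0.832 and 0.258 before and 0.656 and 0.401 after. Frequencies with Mtx2 were 0.245 and 0.165 before and 0.420 and 0.253 after, and with the nearer desert 0.218 and 0.177 before and 0.212 and 0.412 after. The groups did not overlap at Mtx2 and overlapped in the nearer desert. In the farther desert the frequencies were 0.202 and 0.128 before and 0.240 and 0.228 after, without overlap. For the whole 3′ flank the difference was 0.43 ± 0.31 (limma, n = 2 and 2, adjusted p = 0.346, 95% interval −0.25 to 1.11), for the cluster −0.48 ± 0.24 (adjusted p = 0.239) and for the 5′ flank −0.05 ± 0.32 (adjusted p = 0.872). Of the 3 coarse stretches 0 passed, and 0 had an unadjusted p under 0.05.

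**Figure D2:**
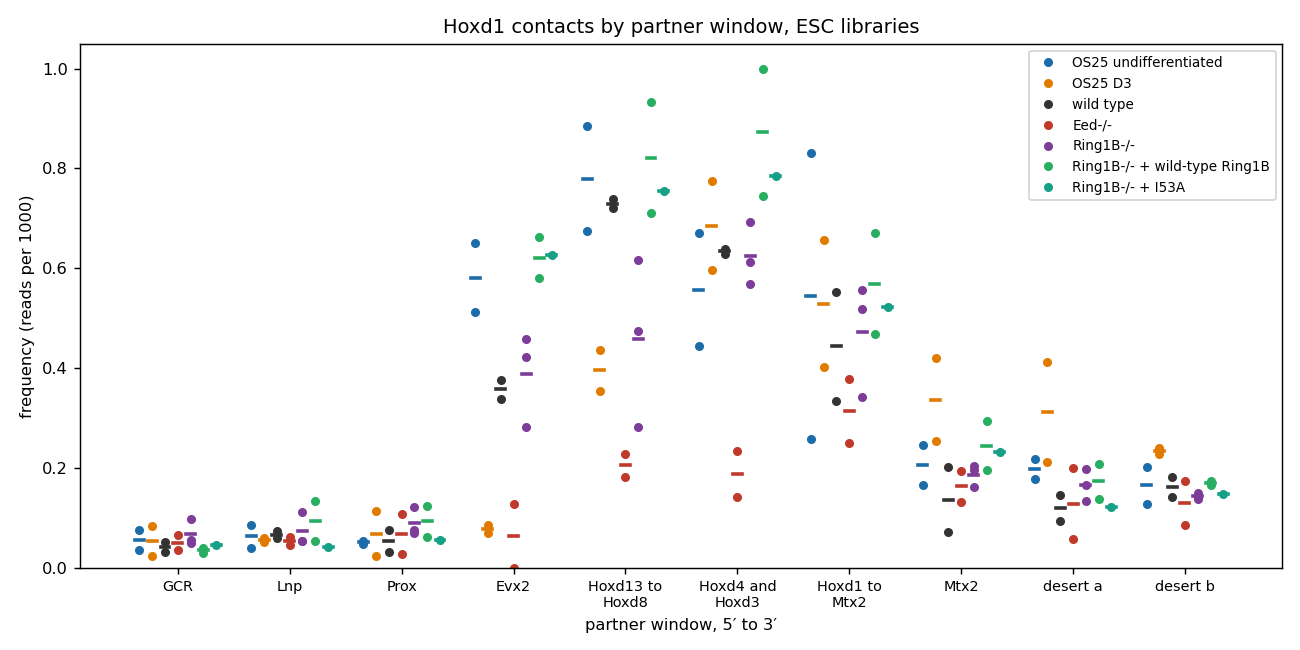
Frequency of Hoxd1 contacts (reads per 1000) with each partner window in the 14 ESC libraries. Points are libraries and bars are group means; Eed-/- cells sit lowest at Hoxd13 to Hoxd8 and at Hoxd4 and Hoxd3, and D3 and Eed-/- cells sit lowest at Evx2.

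Contacts of Hoxd1 with all 3 windows of its cluster were lower in Eed-/- than in wild-type cells. With Hoxd13 to Hoxd8, frequencies were 0.738 and 0.720 in wild-type cells and 0.182 and 0.228 in Eed-/- cells. With Hoxd4 and Hoxd3 they were 0.629 and 0.639 against 0.233 and 0.141. With Evx2 they were 0.376 and 0.339 against 0 and 0.128, where the 0 stands for no read in a library in which 3 reads are 0.00276. No Eed-/- library reached a wild-type library in any of the 3 windows.

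All 3 cluster windows of Hoxd1 passed the test. Their log2 differences were −1.74 ± 0.33 at Hoxd13 to Hoxd8 (limma, n = 2 and 2, adjusted p = 0.00356), −1.70 ± 0.30 at Hoxd4 and Hoxd3 (adjusted p = 0.00262) and −2.79 ± 0.64 at Evx2 (adjusted p = 0.0104). They correspond to frequencies 3.35-fold, 3.25-fold and 6.91-fold lower on the scale with the pseudocount. The Evx2 difference rests on mHoxD_93 with mHoxD_67, which was at 0.751 and 0.677 in wild-type cells and 0 and 0.256 in Eed-/- cells. The other pair of that window held no read in wild-type cells and at most 0.0011 in Eed-/- cells. Among the 64 window pairs, 14.1% were lower and 1.56% higher in Eed-/- cells, and of the 10 with Hoxd1, 3 were lower and 0 higher. The cluster as 1 stretch went from 0.662 and 0.653 to 0.184 and 0.185, a log2 difference of −1.73 ± 0.24 (adjusted p = 0.000128), where 22.2% of the 9 stretch pairs were called lower and 1 of the 3 with Hoxd1 was. The other stretch called was the cluster with itself. Taking the median over fragment pairs in place of the mean ended all 3 window calls (limma adjusted p = 0.0540 at Evx2, 0.446 at Hoxd13 to Hoxd8 and 0.0513 at Hoxd4 and Hoxd3), and fitting only the groups compared ended that at Evx2 (0.231). The call on the whole cluster held under every alternative fitted.

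Outside the cluster the intervals were wide and no window passed. The log2 difference between Eed-/- and wild-type cells was −0.23 (95% interval −0.91 to 0.46, adjusted p = 0.540) for the 3′ flank and 0.03 (−0.68 to 0.74, adjusted p = 0.933) for the 5′ flank, in the same limma fit. With Mtx2 the frequencies were 0.194 and 0.132 in Eed-/- cells, inside the wild-type range of 0.072 to 0.201. The ratio of cluster to 3′ flank contacts at matched distances was 1.68 and 2.39 (log2) in wild-type cells and 0.06 and 0.30 in Eed-/- cells. Eed-/- replicate 2 held no read on the 3′ side at 60 to 80 kb, so the pseudocount of 0.02 entered its value. That value of 0.30, and the difference between the groups, therefore depend on the pseudocount and on library scaling. The difference, −1.85 ± 0.73 (limma), had an unadjusted p of 0.0241 and an adjusted p of 0.337 over both ratios and all 7 ESC contrasts.

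Ring1B-/- cells did not differ from wild type past the threshold. This comparison shares its wild-type libraries with that of Eed-/- cells. The cluster stretch was 0.630, 0.392 and 0.522 in Ring1B-/- cells, all below the wild-type 0.662 and 0.653, with a log2 difference of −0.37 ± 0.22 (limma, n = 3 and 2, adjusted p = 0.422, 95% interval −0.84 to 0.11). With Hoxd13 to Hoxd8 it was 0.616, 0.283 and 0.474 and with Evx2 0.459, 0.281 and 0.422. With Hoxd4 and Hoxd3 it was 0.693, 0.569 and 0.612, which overlapped with wild type. Replicate 2, the deepest of the ESC libraries, was lowest in each of these windows. Of the 10 Hoxd1 windows 0 passed against wild type, beside 0% of all 64, and 1 of the 10 had an unadjusted p under 0.05.

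The difference between the knockouts was itself tested. By 1 stretch and 2 windows, contacts of Hoxd1 were higher in Ring1B-/- than in Eed-/- cells. Ring1B-/- cells stood above Eed-/- cells by 1.36 ± 0.22 on the log2 scale for the cluster stretch (limma, n = 3 and 2, adjusted p = 0.000495), where 11.1% of the stretch pairs were called higher and 1 of the 3 with Hoxd1 was. Among windows, those with Hoxd4 and Hoxd3 (1.67 ± 0.27, adjusted p = 0.00256) and with Evx2 (2.87 ± 0.58, adjusted p = 0.00964) were higher, 2 of 10 with Hoxd1 against 4.69% of all 64. Both window calls were lost with the median over pairs (limma adjusted p = 0.0561 each). Hoxd13 to Hoxd8 missed the threshold in limma (1.03 ± 0.30, adjusted p = 0.0618).

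**Figure D3:**
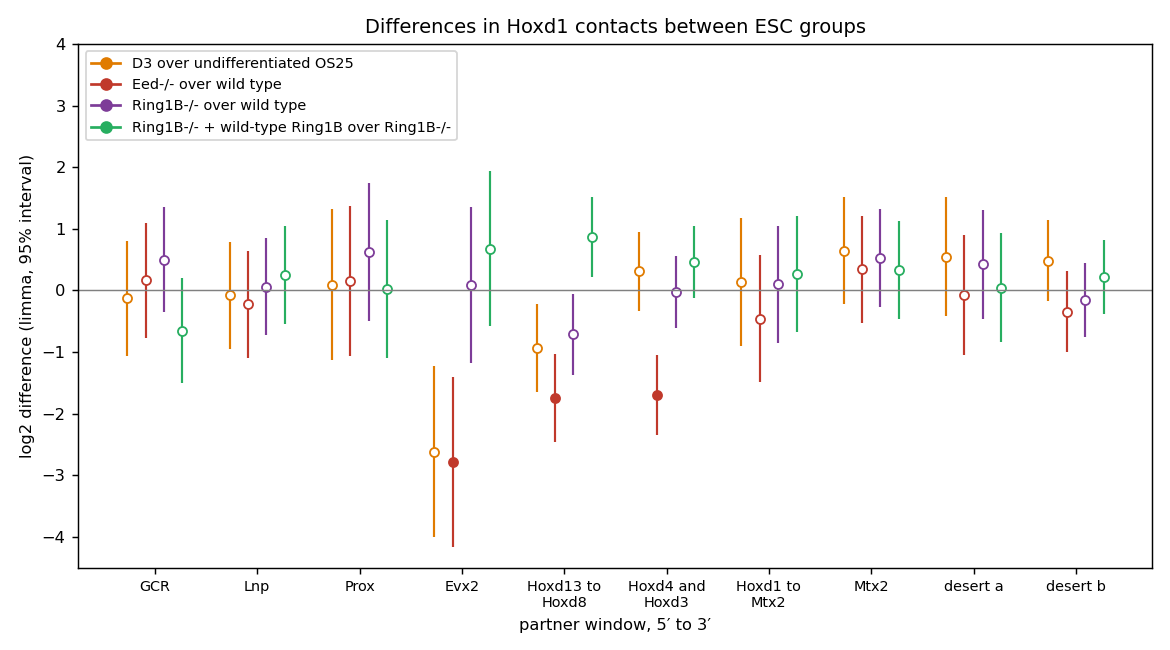
Log2 differences in Hoxd1 contacts between ESC groups for each partner window, with 95% intervals from limma. Filled points passed an adjusted p of 0.05, which holds for the 3 cluster windows in Eed-/- cells and for no window of the other 3 contrasts shown.

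Ring1B-/- cells that carried wild-type Ring1B read higher within the cluster. The cluster stretch was 0.719 and 0.925, above all 3 Ring1B-/- libraries. The log2 difference was 0.67 ± 0.22 (limma, n = 2 and 3, adjusted p = 0.0452), where 22.2% of the stretch pairs were called higher and 1 of the 3 with Hoxd1 was. This call was lost without either library with Ring1B put back, without Ring1B-/- replicate 2 or 3 (0.49 to 0.85 over all 5 left out in turn), and under 5 other settings. Among single windows, Hoxd13 to Hoxd8 (0.710 and 0.933) differed by 0.87 ± 0.30 (adjusted p = 0.209), and 0 of 10 Hoxd1 windows passed beside 0% of all 64, with 1 at an unadjusted p under 0.05. The first of these libraries was the shallowest of the series.

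The single library of cells with the I53A mutant was near those with wild-type Ring1B. Its cluster stretch was 0.754, its Hoxd13 to Hoxd8 window 0.756 and its Evx2 window 0.626, each between the values of both libraries with wild-type Ring1B. Against Ring1B-/- cells the log2 difference for the cluster was 0.56 ± 0.27 (limma, n = 1 and 3, adjusted p = 0.294, 95% interval −0.04 to 1.16). That library is assumed to vary like the others. Of 10 Hoxd1 windows 0 passed beside 0% of all 64, and 0 had an unadjusted p under 0.05.

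Undifferentiated OS25 and wild-type WTF18 cells are different lines, and feeder culture is stated only for the second. Their Hoxd1 differences on the log2 scale were 0.02 for the cluster (95% interval −0.50 to 0.54) and 0.27 for the 3′ flank (−0.42 to 0.95). For the 5′ flank the difference was 0.08 (−0.63 to 0.79). Of 10 windows 0 passed in limma beside 0% of all 64, and 0 had an unadjusted p under 0.05. No stretch pair was called in this contrast, in D3 cells, in Ring1B-/- against wild-type cells or with I53A (0% of 9 each).

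At single fragments, the Hoxd1 contact with the highest mean in 6 of 7 ESC groups joined mHoxD_93 to mHoxD_110, 43.7 kb away on the 3′ side. Its frequency was 6.24 and 1.26 in undifferentiated OS25 cells, 4.43 and 0.864 in D3 cells, 3.12 and 1.36 in wild-type cells and 1.76 and 1.202 in Eed-/- cells. It was 1.81, 0.608 and 3.45 in Ring1B-/- cells, 3.75 and 2.89 with wild-type Ring1B and 2.15 with I53A. By library it was the highest partner at least 20 kb away in 9 of 14. The 5 exceptions were replicate 2 of undifferentiated OS25, D3, wild-type and Ring1B-/- cells and the I53A library, in which mHoxD_75, mHoxD_75, mHoxD_79, mHoxD_84 and mHoxD_70 stood highest.

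The pair stood at 8.20 times the expected frequency (median of 14 ESC libraries, 2.39 to 20.0), while the other 64 pairs of mHoxD_110 together stood at 0.371 times (0.218 to 0.815). The pair had been picked for its high frequency in these ESC libraries, so both ratios are a description only. It carried 2.50% to 17.6% of all Hoxd1 signal in a library. Without it, an alternative chosen after the values were seen, no call on the coarse stretches or the ratios changed. In limb cells the same pair gave 0.184 to 0.263, or 1.42 times the expected frequency.

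In undifferentiated OS25 cells the highest 5′ partners were fragments with Hoxd11 and Hoxd13, read from the Hoxd1 gene fragment mHoxD_94. Other groups had mHoxD_79, mHoxD_85 or mHoxD_89 among their 3 highest partners. With mHoxD_75 (Hoxd11, 81.5 kb away) the frequency was 2.27 and 2.52 in undifferentiated OS25 cells, 0.669 and 2.15 in D3 cells, 2.46 and 1.79 in wild-type cells and 0.184 and 0.826 in Eed-/- cells. With mHoxD_70 (Hoxd13, 93.2 kb away) it was 2.06 and 2.16, 1.16 and 0.139, 1.68 and 0.906, and 0.783 and 0.276 in the same order. In both, the Eed-/- libraries lay below the wild-type libraries, and mHoxD_75 was also among the 3 highest partners of wild-type cells. The D3 libraries lay below the undifferentiated ones, from which these partners had been picked for their high values. Both orders are therefore a description only.

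The 3 libraries with Ring1B put back gave the highest values with Hoxd13. mHoxD_70 was at 1.12, 0.309 and 0.890 in Ring1B-/- cells, 2.62 and 2.28 with wild-type Ring1B and 3.44 with I53A. It was among the 3 highest partners in both groups with Ring1B put back and not in Ring1B-/- cells. This order is therefore also a description only. Over the 14 ESC libraries mHoxD_75 (Hoxd11) and mHoxD_70 (Hoxd13) stood at medians of 10.52 and 8.92 times the expected frequency with Hoxd1. With all fragments outside the anchor they stood at 4.48 and 2.44 times. Because both had been picked for high values with Hoxd1, these ratios are a description only. In Eed-/- cells the 2nd and 3rd highest partners were mHoxD_118 in the Mtx2 window (0.873 and 0.370) and mHoxD_85 with Hoxd3 and Hoxd4 (0.773 and 0.329), against mHoxD_75 and mHoxD_79 in wild-type cells. Of 123 Hoxd1 pairs with a mean above 0.02, 0 passed in any ESC contrast by limma, beside 0% of all 3484 pairs, and 2 to 20 had an unadjusted p under 0.05.

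**Figure D4:**
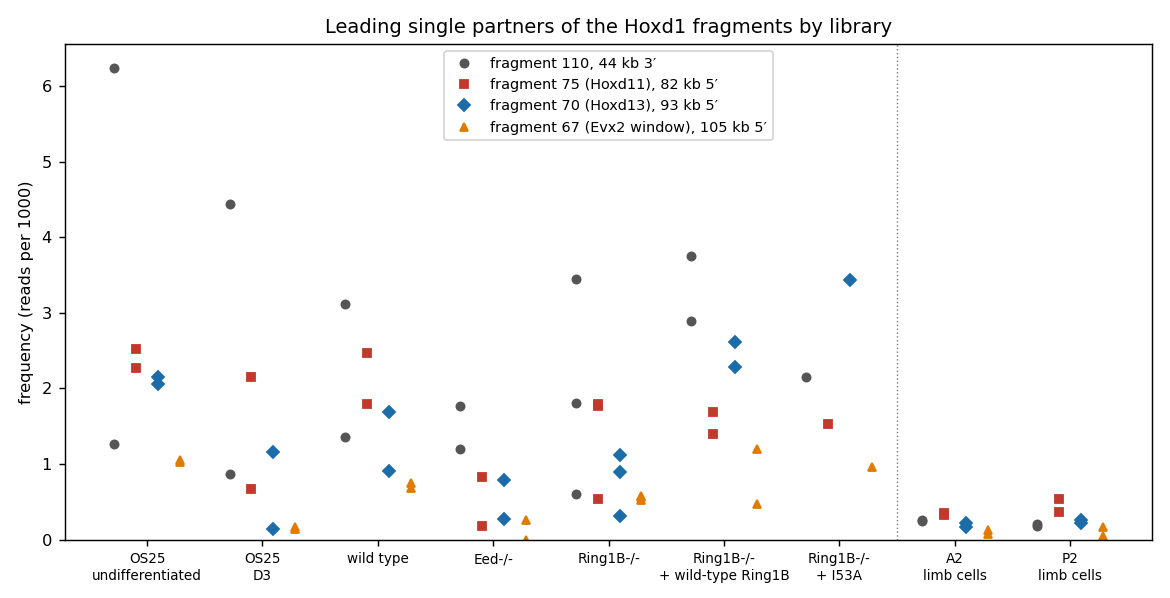
Frequency (reads per 1000) of the leading single partners of the Hoxd1 fragments by library, ESC groups left of the dotted line and limb cells right of it. The pair with mHoxD_110 runs from 0.608 to 6.24 in ESC libraries and from 0.184 to 0.263 in limb libraries, which were made with another primer design.

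In limb cells, Hoxd1 contacts were at 0.195 to 0.286 with the cluster, 0.167 to 0.225 with the 3′ flank and 0.048 to 0.060 with the 5′ flank. With Hoxd4 and Hoxd3 (7 pairs) the frequency was 0.328 and 0.217 in A2 cells and 0.394 and 0.350 in P2 cells. With Hoxd13 to Hoxd8 it was 0.229 and 0.206 against 0.228 and 0.279. Evx2 was at 0.075 and 0.058 against 0.067 and 0.0997, close to the level of the 5′ flank. P2 libraries lay above A2 libraries at Hoxd4 and Hoxd3, and the groups overlapped at the other 2 windows.

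Along the 3′ flank, frequencies were lower in the farther desert than next to Hoxd1 in all 4 limb libraries. They were 0.206 to 0.301 between Hoxd1 and Mtx2, 0.153 to 0.221 at Mtx2, 0.173 to 0.249 in the nearer desert and 0.152 to 0.190 in the farther desert, over 4 libraries. On the other side, Prox, Lnp and GCR lay between 0.033 and 0.069, and the 3 far 5′ windows, between 0.024 and 0.062. The 5′ to 3′ log2 ratio at matched distances was −1.57 and −1.73 in A2 cells and −1.79 and −1.68 in P2 cells, the same side in all 4 libraries.

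Against pairs of like distance, the desert had the highest ratios of the 3′ side in limb cells. The ratio was 2.17 (median of 4, 2.08 to 2.44) in the nearer desert, 2.08 in the farther desert and 1.70 at Mtx2. It was 1.92 with Hoxd4 and Hoxd3, 1.90 with Hoxd13 to Hoxd8 and 0.672 with Evx2. The highest single partners were mHoxD_81 with Hoxd8 in A2 cells (0.351 and 0.545) and mHoxD_79, 61.5 kb away, in P2 cells (0.418 and 0.742). The ESC and limb designs differ in their fragments and were not tested against each other.

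Anterior and posterior cells did not differ past the threshold in any Hoxd1 contact. For the cluster (0.248 and 0.195 in A2, 0.270 and 0.286 in P2) the log2 difference was 0.31 ± 0.17 (limma, n = 2 and 2, adjusted p = 0.618, 95% interval −0.05 to 0.67). It was 0.07 (−0.29 to 0.43) for the 3′ flank, 0.05 (−0.31 to 0.41) for the 5′ flank and −0.08 (−0.43 to 0.28) for the far 5′ stretch. Of 13 Hoxd1 windows 0 passed, beside 0% of 103 window pairs, and 1 had an unadjusted p under 0.05, Hoxd4 and Hoxd3 (0.45 ± 0.22, adjusted p = 0.981). Of 4 stretches 0 passed beside 0% of 14, and of 181 single pairs 0 passed beside 0% of 8157, with 7 at an unadjusted p under 0.05.

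**Figure D5:**
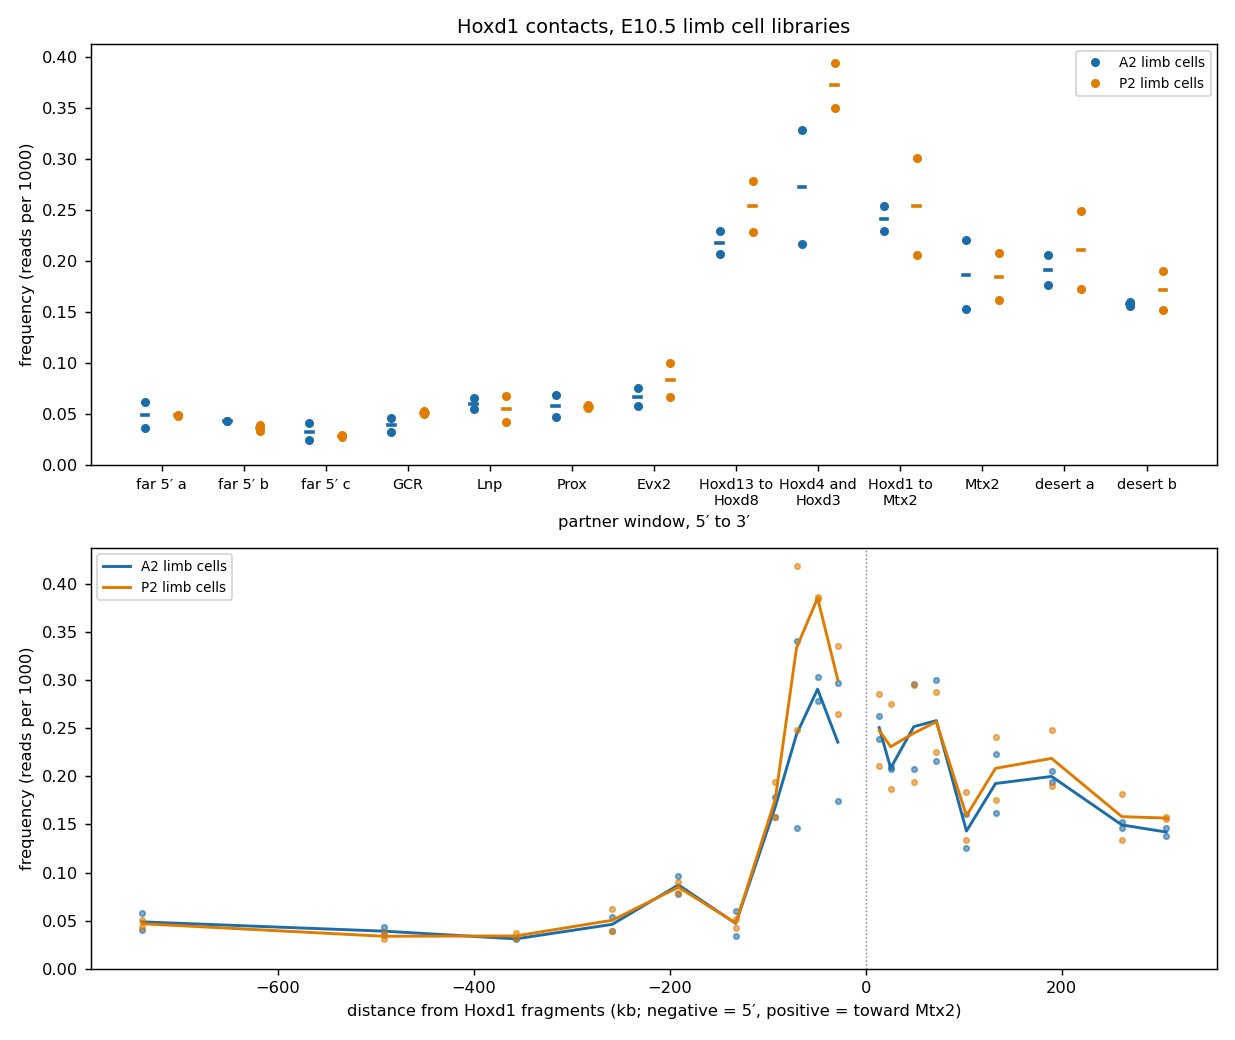
Frequency of Hoxd1 contacts (reads per 1000) in A2 and P2 limb cells by partner window (upper) and against signed distance in kb (lower). Points are libraries, and bars and lines are group means; windows from the far 5′ side to Prox stay at 0.069 or below and windows from Hoxd1 to the farther desert stay at 0.152 or above.

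Contacts of Hoxd1 with the 5′ part of the cluster varied across libraries much as contacts inside the cluster did. Over 14 ESC libraries, the window pairs without Hoxd1 whose log2 frequencies were most like those of Hoxd1 with Hoxd13 to Hoxd8 were Hoxd13 to Hoxd8 with Hoxd4 and Hoxd3 (Pearson r = 0.94), Hoxd13 to Hoxd8 with itself (0.93) and Hoxd4 and Hoxd3 with itself (0.87). For Hoxd1 with Mtx2 the most alike were Hoxd13 to Hoxd8 with the farther desert (0.60), Mtx2 with the nearer desert (0.54), and the nearer with the farther desert (0.54). These libraries share primers and groups, so the coefficients are a description.

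The contacts of Hoxd1 were last set against those of Hoxd4 and Hoxd3 with the same partners in the same library, a measure defined after the values had been seen. The log2 difference of this ratio between Eed-/- and wild-type cells was 0.11 (95% interval −0.70 to 0.92) with Evx2 to Hoxd8 as partners and −0.07 (−0.88 to 0.74) with the 3′ flank. Between D3 and undifferentiated cells it was 0.25 (−0.56 to 1.06) and −0.08 (−0.89 to 0.74). None of these ratios passed, and intervals of this width do not show that Hoxd1 and its neighbours act alike.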

How the data were processed

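Contacts were measured by 5C in 14 ESC and 4 limb cell libraries, grouped by their labels. The deposited matrices hold signal values: the authors ran their Ion Torrent data through a Galaxy 5C workflow and expressed the reads of each contact per 1000 total reads of the run, on mm9. For the aligner, a name is not given in the sources. Total reads were read from the smallest step of each matrix (largest deviation from whole reads 1.07e-06) and ran from 216419 to 2096681, and intervals and floors of 3 reads cover counting error only.

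Fragments were assigned to windows by their midpoints, and forward–reverse pairs at least 10 kb apart were averaged with zeros included. Tests used limma 3.58.1 (R 4.3.3) on log2(value + 0.02), two-sided, over all window pairs, stretch pairs or fragment pairs (mean above 0.02) of a design. P-values were adjusted by Benjamini-Hochberg within a contrast, or over both ratios and all contrasts of a design, with a threshold of 0.05. All 14 ESC libraries shared 1 estimate of spread. Expected values are means of pairs without Hoxd1 in the same library within 20% of the distance. Partners named are all windows and the 3 highest fragments at least 20 kb away per group; mHoxD_67 was added after its values were seen. The fits were tested on simulated data. Scaling, pseudocount, distance, primer efficiency, median, filter, block and left-out libraries were tried as alternatives. The members, windows and lists were chosen with earlier results of these data known.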

Additional observations from a re-analysis of the deposited data

How the results depend on the processing

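The lower contact of Hoxd1 with its cluster as 1 stretch in Eed-/- than in wild-type cells, and its higher contact in Ring1B-/- than in Eed-/- cells, kept their direction and their call under every alternative and every library left out, with log2 differences of −2.27 to −1.41 and 1.09 to 2.06. Calls on single windows did not: the median over pairs ended those of Eed-/- over wild type (limma adjusted p = 0.0540 at Evx2, 0.446 at Hoxd13 to Hoxd8, 0.0513 at Hoxd4 and Hoxd3) and of Ring1B-/- over Eed-/- (0.0561 at Evx2 and at Hoxd4 and Hoxd3), and only the compared groups in the fit ended that of Eed-/- at Evx2 (0.231). The higher cluster contact with wild-type Ring1B put back (0.67) lost its call with only the compared groups in the fit (0.67), the median over pairs (0.27), a pseudocount of 0.005 (0.69), primer efficiency (0.70), scaling by the sum of pairs at least 10 kb apart (0.51), and libraries left out (0.49 to 0.85). For D3 cells 1 window, Evx2, passed under primer efficiency and 1, the same, under that scaling (limma adjusted p = 0.0292 and 0.0409), and Evx2 also passed with a 20 kb minimum (0.0370), with only the compared groups in the fit (1.83e-05) and with a pseudocount of 0.1 (0.00749). With no filter on low values, 1 fragment pair passed in each ESC comparison except Ring1B-/- over Eed-/-, where 3 did. The ratio of 5′ to 3′ flank passed for I53A with only the compared groups in the fit (−1.27). In these cases the cause was not tested.

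Over all fragment pairs kept for the fit, deviations of same-numbered libraries correlated at −0.0083 to 0.094. Single Hoxd1 readouts went otherwise. Between Hoxd1 and Mtx2, replicate 1 was above replicate 2 in every group with replicates. The 5′ to 3′ ratio was lower in replicate 1 than in replicate 2 in most groups, but not in Ring1B-/- or A2 cells. Whether replicate numbers pair the Hoxd1 readouts is therefore not settled. With the replicate block, the ratio of cluster to 3′ flank in Eed-/- cells (−1.85) passed with an adjusted p of 0.0409 in limma, and no other call changed.

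Reversals all fell on differences that had not passed. With the median over pairs they were −0.68 (3′ flank, I53A), −0.13 (cluster, OS25 over wild type), −0.25 (cluster, I53A), 0.0108 (far 5′, limb) and 0 (5′ flank, Eed-/-). Others were −0.034 (3′ flank, I53A, 20 kb minimum), −0.0108 and −0.0472 (cluster, OS25 over wild type, primer efficiency and scaling) and 0.0094 (5′ to 3′ ratio, wild-type Ring1B put back, pseudocount 0.1). With libraries left out, the ratio of cluster to 3′ flank ran from −1.61 to 0.047 for OS25 over wild type and −0.041 to 0.63 in limb. The 5′ to 3′ ratio ran from −0.85 to 1.51 (Eed-/-), −0.90 to 0.21 (D3), −1.28 to 0.23 (OS25 over wild type), −1.08 to 1.28 (Ring1B-/- over Eed-/-), −0.32 to 1.19 (Ring1B-/- over wild type) and −0.997 to 0.41 (wild-type Ring1B put back). The 3′ flank ran from −0.63 to 0.18 (Eed-/-), −0.16 to 0.69 (OS25 over wild type), −0.12 to 0.26 (limb), −0.036 to 0.77 (Ring1B-/- over Eed-/-) and −0.17 to 0.44 (Ring1B-/- over wild type). The cluster ran from −0.20 to 0.24 (OS25 over wild type). The 5′ flank ran from −0.22 to 0.28 (Eed-/-), −0.46 to 0.36 (D3), −0.061 to 0.16 (limb) and −0.51 to 0.28 (wild-type Ring1B put back). Leaving out the pair of mHoxD_93 and mHoxD_110, chosen after seeing the data, changed no call on stretches or ratios. For single windows, the pseudocounts, the 20 kb minimum, the median and the fit of only the compared groups were also chosen after seeing the data. Between 15 and 64 of 127 ESC pairs held no read, which limits single pairs most.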
